A study of Mus musculus with 8 samples.

Results

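The genes described here are the D and E cyclins with their kinases and inhibitors: the D-type cyclins Ccnd1, Ccnd2 and Ccnd3, the kinases Cdk4 and Cdk6, the E-type cyclins Ccne1 and Ccne2, and the inhibitors Cdkn1a, Cdkn1b and Cdkn2c. They were chosen by gene symbol, and the 10 genes were represented by 19 of the 41174 probes on the array. All 10 were among the 16323 genes tested, and every one of the 19 probes was well above background on all 8 arrays. The study put EBF1, a transcription factor that commitment to the B lineage needs, back into mouse progenitors that lack it. All groups, controls included, were c-Kit+ fetal liver cells of Ebf1-/- animals on a C57Bl/6 background, grown on OP9 stromal feeder cells in medium with 4% FCS, 5 ng/ml IL-7, 10 ng/ml Flt3L and 10 ng/ml SCF. The retroviral vector pMys-IRES-GFP carried no insert (Empty, n = 2 arrays), wild-type EBF1 (Ebf1wt, n = 3) or the mutant EBF1 H240A (Ebf1-H240A, n = 3). GFP+ cells were sorted 36 h after transduction and 0.2 ug of their RNA was hybridised to one-colour arrays. The comparisons ask which of these genes change when EBF1 is supplied, and which respond differently to the mutant. The expression is that of a retrovirus and not of the endogenous gene, and the culture held feeder cells until the sort.

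D-type cyclins bind Cdk4 or Cdk6 in early G1, and E-type cyclins bind Cdk2 later, so that both complexes phosphorylate the retinoblastoma proteins and release E2F factors, which switch on genes for DNA synthesis. The CIP/KIP inhibitors p21 (Cdkn1a) and p27 (Cdkn1b) bind several cyclin-kinase complexes, and the INK4 inhibitor p18 (Cdkn2c) binds Cdk4 and Cdk6. In B-lineage progenitors cyclins D2 and D3 are both expressed, and cyclin D3 is known to take part in their proliferation.

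Sequences are shown where a start site or a probe bears on the members that moved. RefSeq promoter windows were found for 7 of the 10 genes, with 10 start sites among them, on GRCm38.p6. Ccnd1, Ccnd2 and Ccne2 had no window and were not searched for motifs. The windows below are the 250 bases before a start, written 5′ to 3′ on the strand of the gene. The Cdk4 window (chr10:127063285-127063534, plus strand) is shown because Cdk4 fell in both EBF1 groups, with each CACGTG (E-box) in capitals. The Ccnd3 window at its second listed start (chr17:47593217-47593466, plus strand) and the Ccne1 window (chr7:38107491-38107740, minus strand) have each CCCNNGGG, the palindromic core of the EBF1 motif, in capitals. They are shown because, of the windows found, only they held such a match. Ccnd3 moved up and Ccne1 down, while Cdkn1a, which also moved up, had none. G and C made up 64.8% and 76% of the 2 windows shown, and matches were not compared with windows of like GC share.
Cdk4: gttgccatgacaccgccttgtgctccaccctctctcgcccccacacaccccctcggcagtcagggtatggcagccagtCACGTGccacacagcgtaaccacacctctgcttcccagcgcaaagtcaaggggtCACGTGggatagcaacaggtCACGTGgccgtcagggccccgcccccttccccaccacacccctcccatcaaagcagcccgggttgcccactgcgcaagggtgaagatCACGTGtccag
Ccnd3: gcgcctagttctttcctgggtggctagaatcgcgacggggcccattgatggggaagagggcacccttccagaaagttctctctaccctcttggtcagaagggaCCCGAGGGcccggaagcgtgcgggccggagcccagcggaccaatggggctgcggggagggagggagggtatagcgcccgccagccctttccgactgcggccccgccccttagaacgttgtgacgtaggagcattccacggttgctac
Ccne1: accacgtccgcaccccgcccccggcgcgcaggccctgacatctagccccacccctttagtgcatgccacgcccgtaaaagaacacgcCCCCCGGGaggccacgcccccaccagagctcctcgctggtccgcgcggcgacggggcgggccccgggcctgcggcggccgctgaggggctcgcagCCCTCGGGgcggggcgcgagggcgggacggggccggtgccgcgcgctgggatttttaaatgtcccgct

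The Cdk4 window held 4 CACGTG matches, which began 172, 118, 98 and 11 bases before the start. This 6-letter E-box, which reads the same on both strands, was found at least once in 6.02% of 32851 RefSeq promoter windows, and 7 windows (0.0213%) held 4 or more, a count looked up after that of Cdk4 was seen. Cdk6 held 1 such match, 220 bases before its start. The Ccnd3 window held 1 CCCNNGGG match (CCCGAGGG, 147 bases before the start) and the Ccne1 window held 2 (CCCCCGGG at 163 and CCCTCGGG at 68), against 11.8% of all windows with at least 1. Of the E2F words, which are TTCCCGC and TTCGCGC as well as TTGCCGC and also TTGGCGC, searched on both strands and present in 7.89% of windows, Cdkn2c held TTCCCGC 25 bases before its first start. No match overlapped a match of another motif, and none of the 3 motifs was found in the Cdkn1a and Cdkn1b windows, the first Ccnd3 window or the second Cdkn2c window. Binding was not measured, so these matches describe the letters of the windows alone.

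The arrays varied in their 75th percentile of processed intensity from 232 to 326 units before scaling, and the share of probes well above background was 54.6% to 59.7%. Within groups, arrays correlated at r = 0.991 to 0.995 across the 16323 genes tested, each given by 1 probe. The Ebf1 probe used for the gene stood at 10.10 and 10.19 in Empty, although these cells are Ebf1-/-. It differed by 0.03 ± 0.09 log2 units (SE, limma adjusted p = 0.805) between Ebf1wt and Empty. A second, dim Ebf1 probe lay between 1.67 and 3.36 over the 8 arrays and was well above background on 3 of them. Whether either probe lies within the insert of the vector, or within what the Ebf1-/- animals lack, is not established, so they check nothing about the labels. Cd79b, which encodes a chain of the B-cell receptor complex and is named here after its values were seen, stood at 9.40 and 9.56 in Empty, between 14.36 and 14.52 in Ebf1wt and between 14.56 and 14.71 in Ebf1-H240A, so both EBF1 groups lay above Empty. The 7 c-Kit+ progenitor markers were well above background on all 8 arrays, but they were not level across groups: 2 were higher and 4 lower with Ebf1wt (median -0.79), and 1 was higher and 5 lower with Ebf1-H240A (median -1.14). Of all genes tested, 17.2% were higher and 21.2% lower with Ebf1wt, and 21.6% and 23% with Ebf1-H240A. Kit itself differed by -0.79 and -1.14, and the part of these markers in the members' differences from Empty was not tested. The arrays lay on 2 slides that each held all 3 groups.

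When wild-type EBF1 was supplied, the 10 genes changed in both directions: Ccnd1, Ccnd3 and Cdkn1a rose, whereas Ccnd2, Cdk4, Cdk6, Ccne1 and Ccne2 fell, and Cdkn1b and Cdkn2c did not pass the test. That makes 8 of 10 called at a Benjamini-Hochberg adjusted p under 0.05 in limma, 3 higher and 5 lower, where 38.4% of all genes tested were called (17.2% higher and 21.2% lower). With Ebf1-H240A against the same Empty arrays, 9 of 10 were called, 3 higher and 6 lower, and the background was 44.6% (21.6% higher and 23% lower). Between Ebf1-H240A and Ebf1wt, 2 of 10 were called, Ccnd1 higher and Ccnd3 lower, against a background of 6.37% (3.64% higher and 2.73% lower). The median difference over the 10 genes was -0.18, -0.27 and -0.14 log2 units in the 3 comparisons, beside -0.04, -0.00 and 0.02 over all genes tested. The first pair of comparisons shares the 2 Empty arrays, so their values are given side by side and are not independent. In these bulk samples, fewer cells of a type and less RNA per cell cannot be told apart.

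**Figure D1:**
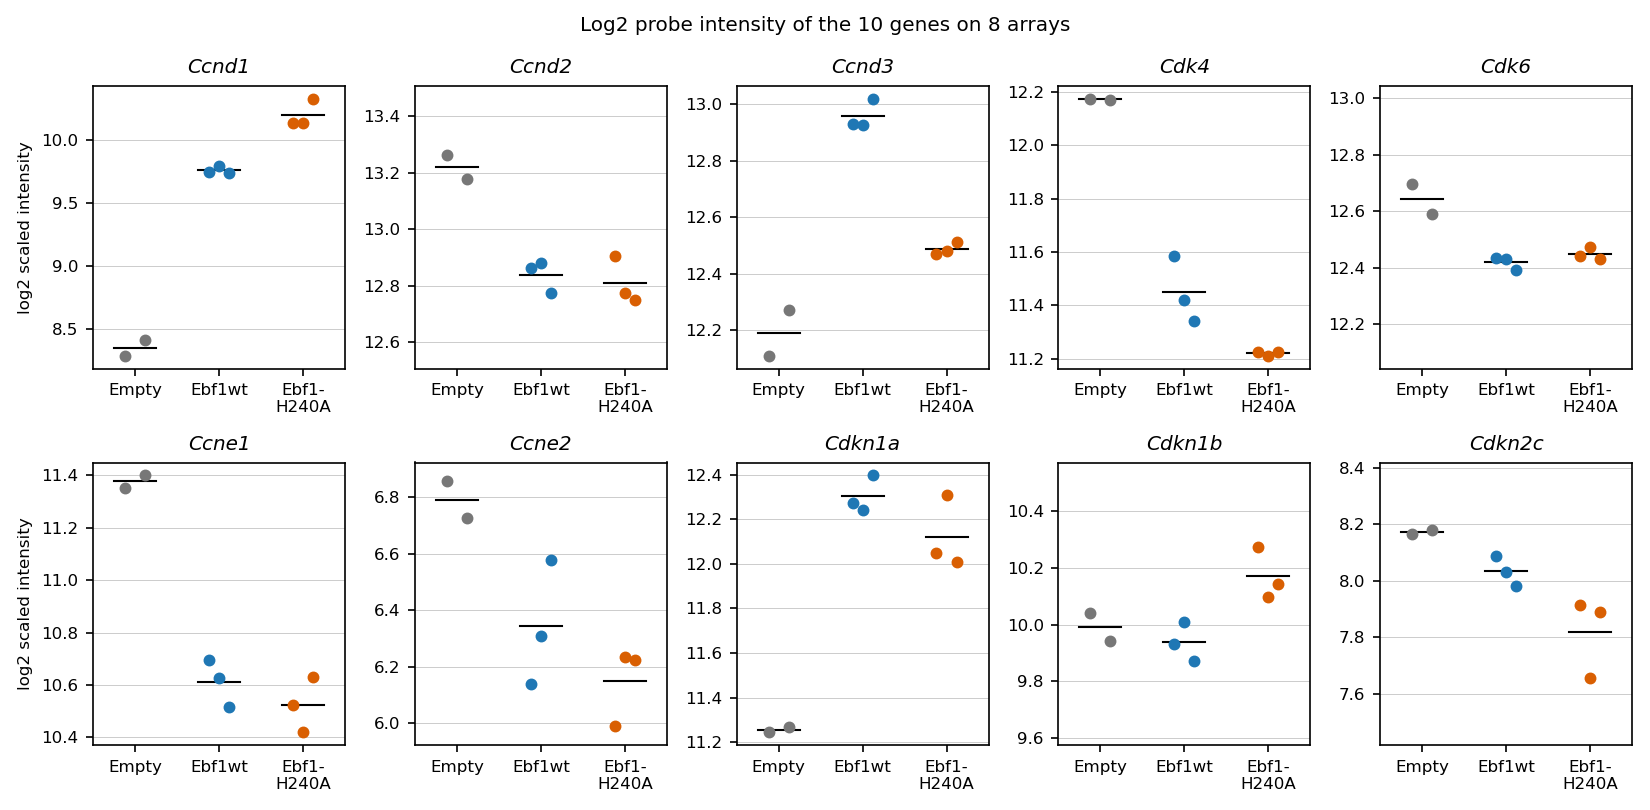
Log2 scaled intensity (y axis, own range in each panel) of the 10 genes on the 8 arrays, by group, with 1 point per array and a line at the group mean. Ccnd1 steps up from Empty through Ebf1wt to Ebf1-H240A, Ccnd3 is highest in Ebf1wt, and Cdk4 and Ccne1 are lower in both EBF1 groups.

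**Figure D2:**
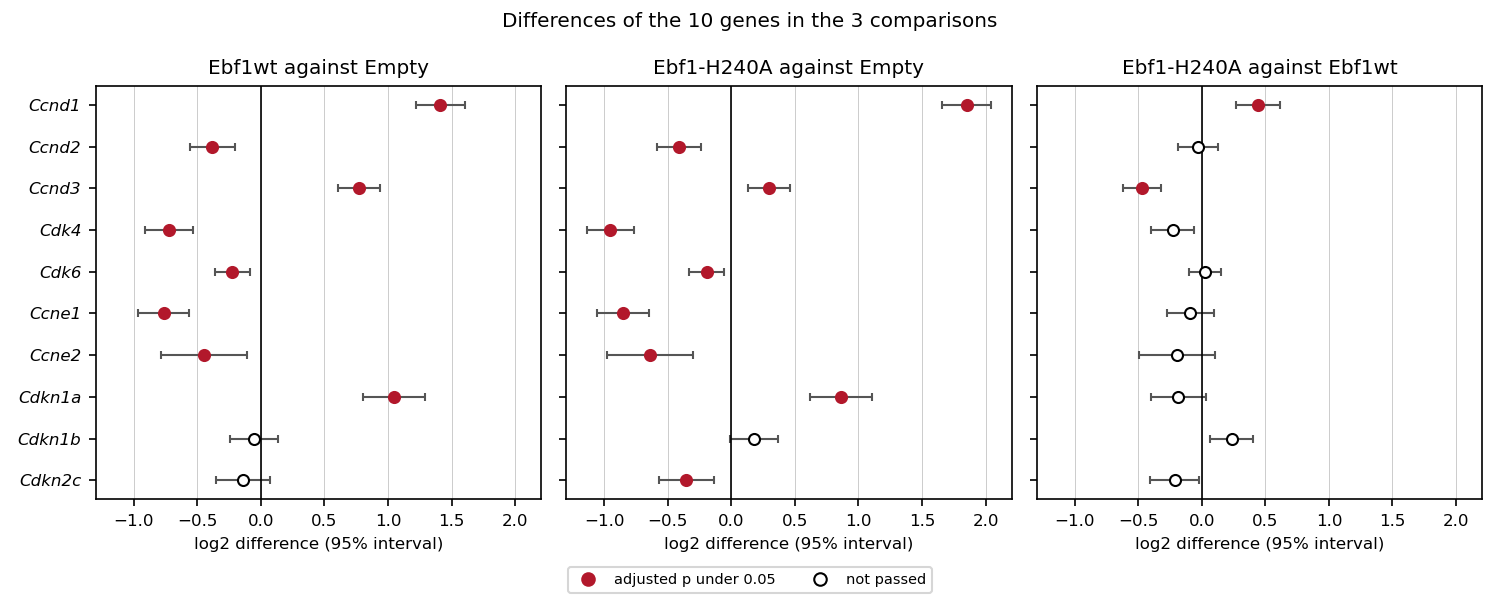
Log2 difference (x axis) of each gene in the 3 comparisons, with 95% intervals from limma. Filled points mark an adjusted p under 0.05, which in the right panel holds for Ccnd1 (0.44) and Ccnd3 (-0.47).

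Ccnd1 encodes cyclin D1. Its log2 intensity was 8.29 and 8.41 on the Empty arrays, 9.75, 9.79 and 9.74 on the Ebf1wt arrays, and 10.14, 10.14 and 10.33 on the Ebf1-H240A arrays. The 3 groups did not overlap, with Empty lowest and Ebf1-H240A highest. Ccnd1 rose by 1.41 ± 0.08 log2 units (SE) with Ebf1wt, or 2.66-fold (adjusted p = 3.71e-05), and by 1.85 ± 0.08 with Ebf1-H240A, or 3.61-fold (adjusted p = 9.57e-06). It ranked 615th and 456th from the highest difference among the 16323 genes. The mutant exceeded the wild type by 0.44 ± 0.07, or 1.36-fold (adjusted p = 0.0189). That last call was close to the threshold and passed in 2 of the 6 fits without 1 array. Without Ebf1wt replicate 1, 2 or 3, or without Ebf1-H240A replicate 1, the adjusted p was 0.0732, 0.0614, 0.0543 and 0.0508. The difference itself stayed between 0.38 and 0.48 over all 6 omissions. It was 0.0778 without the filter on dim probes and 0.0642 with the replicate number as a block. Within slides the Ebf1-H240A excess was 0.35 and 0.59. The single Ccnd1 probe, at chr7:152116173-152116232 of mm9, was printed as 10 spots per array, and the SD over spots of an array lay between 0.05 and 0.09.

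Some markers of the stromal feeder cells rose in the same comparisons as Ccnd1. Of 22 such markers, 17 were tested, and those not well above background on enough arrays included Pdgfra, Lum and Postn. Their summed scaled intensity ranged from 10655 to 11095 units in Empty, from 12765 to 15303 in Ebf1wt and from 14769 to 16037 in Ebf1-H240A. A single gene, Acta2, gave 76.6% to 83.8% of that sum, and it differed by 0.24 with Ebf1wt (adjusted p = 0.123) and by 0.43 with Ebf1-H240A (adjusted p = 0.0153). With Ebf1wt 6 of the 17 rose and 11 did not pass, where 17.2% of all genes rose, and with Ebf1-H240A 9 rose and 8 did not pass, where 21.6% rose. Cdh11 (-0.20 and -0.12) and Dcn (-0.11 and -1.26) were on the other side of 0 and did not pass. The mutant exceeded the wild type for 1 marker, Pdgfrb, a growth factor receptor of mesenchymal cells; these markers were named after their values were seen. Pdgfrb stood at 8.58 and 8.69 in Empty, 10.09, 10.20 and 10.23 in Ebf1wt and 10.69, 10.60 and 10.46 in Ebf1-H240A. Col1a1, a fibrillar collagen gene also named after its values were seen, was well above background on all 8 arrays, from 4.00 and 4.37 in Empty to between 5.26 and 5.44 in Ebf1-H240A. The part of feeder cells in the Ccnd1 result was not tested.

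Ccnd3 encodes cyclin D3 and showed the other order of the EBF1 groups. On the log2 scale it stood at 12.11 and 12.27 in Empty, 12.93, 12.93 and 13.02 in Ebf1wt, and 12.47, 12.48 and 12.51 in Ebf1-H240A. The 3 groups did not overlap, and the mutant lay between Empty and the wild type. Ccnd3 rose by 0.77 ± 0.07 with Ebf1wt, or 1.70-fold (adjusted p = 2.73e-04), and by 0.30 ± 0.07 with Ebf1-H240A (adjusted p = 0.0127). It was lower in the mutant than in the wild type by 0.47 on the log2 scale (difference -0.47 ± 0.06, 95% interval -0.62 to -0.32, adjusted p = 0.00994). This difference passed the test in each of the 6 fits that left out 1 array of the groups compared, with adjusted p from 0.0298 to 0.0453, and it was -0.45 and -0.46 within the slides. The smaller rise with Ebf1-H240A over Empty was less firm and passed in 10 of 17 other settings. It was 0.16 (adjusted p = 0.143) when arrays were scaled to the median, 0.25 (0.0805) with normexp background correction, 0.23 (0.118) in the deposited value table and 0.22 (0.0799) without Empty replicate 1. It also missed the threshold without the filter on dim probes (adjusted p = 0.0540) and within both slides. A fit without an Empty array leaves a single one, which is then assumed to vary like the other groups. Median scaling moved the median of all genes in that comparison from -0.00 to -0.14. The single probe lies at chr17:47736267-47736326 of mm9. Myeloid markers, 8 tested of 10, changed in both directions, with 2 higher and 3 lower in Ebf1wt and 5 higher and 3 lower in Ebf1-H240A than in Empty, and 3 higher in the mutant than in the wild type. Of all genes tested, 17.2% were higher and 21.2% lower with Ebf1wt, and 21.6% and 23% with Ebf1-H240A. Between mutant and wild type the shares were 3.64% and 2.73%. Mpo, Itgam and Cebpa were the lower ones in both comparisons with Empty. Prtn3 and Csf1r were higher in both comparisons with Empty and were well above background on all 8 arrays. Prtn3 differed by 1.47 with Ebf1wt and by 2.04 with Ebf1-H240A. The 3 markers higher in the mutant than in the wild type were Mpo (1.47), Prtn3 (0.57) and S100a9 (4.31). Among the markers higher with Ebf1-H240A than in Empty, S100a8 and S100a9 were well above background on 2 and 3 arrays, all of Ebf1-H240A. They passed the filter only through the group where they were high. The summed intensity of the myeloid markers was 18777 to 23011 units in Empty, 17602 to 23543 in Ebf1wt and 28877 to 37967 in Ebf1-H240A, of which Lyz2 gave 82.4% to 89.1%, and Lyz2 differed by 0.72 between mutant and wild type (adjusted p = 0.0690). These genes were named after their values were seen, and their part in the Ccnd3 difference between mutant and wild type was not tested.

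Ccnd2, which encodes cyclin D2, fell in both EBF1 groups by a small amount. Its log2 intensity was 13.26 and 13.18 in Empty, 12.86, 12.88 and 12.77 in Ebf1wt, and 12.91, 12.77 and 12.75 in Ebf1-H240A. Both Empty arrays lay above all 6 EBF1 arrays, and the EBF1 groups overlapped. The difference was -0.38 ± 0.07 with Ebf1wt (adjusted p = 0.00712) and -0.41 ± 0.07 with Ebf1-H240A (adjusted p = 0.00423), and between mutant and wild type -0.03, with a 95% interval of -0.19 to 0.13. After normexp background correction the Ebf1wt difference no longer passed (-0.23, adjusted p = 0.142), nor did it in the deposited value table (-0.16, adjusted p = 0.358) or without Empty replicate 1 (-0.34, adjusted p = 0.0514). The Ebf1-H240A call was lost with the deposited value table (-0.28, adjusted p = 0.0867). The other Ccnd2 probes lie elsewhere on the locus and fell by similar amounts. They are printed 5′ to 3′, the first from chr6:127089187-127089246 and the second from chr6:127098696-127098755 on the minus strand of mm9, because they carry the same result at separate positions of the locus.
Ccnd2 probe at 127089187: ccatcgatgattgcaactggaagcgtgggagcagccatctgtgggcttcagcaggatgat
Ccnd2 probe at 127098696: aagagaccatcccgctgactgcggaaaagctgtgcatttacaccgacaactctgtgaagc

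The first of these gave -0.29 in Ebf1wt and -0.40 in Ebf1-H240A, and the second -0.30 and -0.41. All 4 differences passed at an adjusted p under 0.05 over all probes kept. The 3 D-type cyclins thus differed in direction: Ccnd1 and Ccnd3 rose while Ccnd2 fell.

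**Figure D3:**
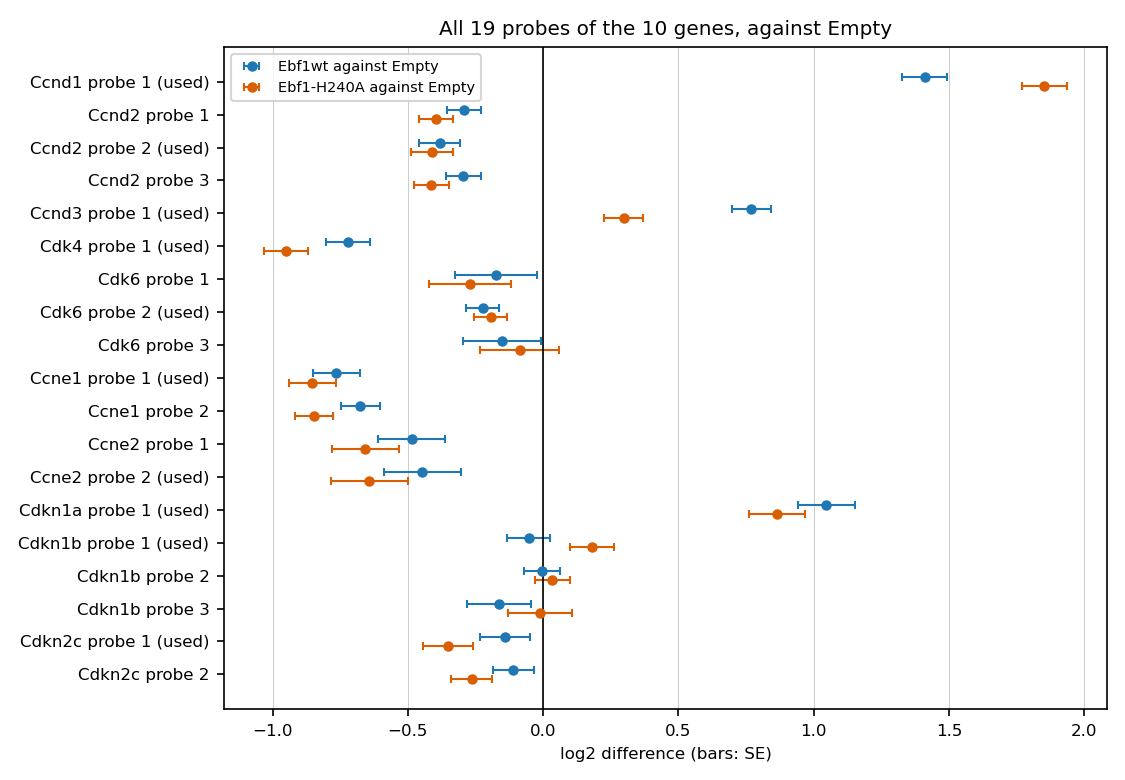
Log2 difference of Ebf1wt (blue) and Ebf1-H240A (orange) against Empty (x axis, bars are SE) for each of the 19 probes of the 10 genes, with the probe that stood for the gene marked as used. The 3 Ccnd2 probes lie between -0.29 and -0.41, and the Ccne1 and Ccne2 probe pairs lie together.

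Cdk4, the kinase partner of the D cyclins, fell in both EBF1 groups. The log2 intensities were 12.17 and 12.17 in Empty, 11.58, 11.42 and 11.34 in Ebf1wt, and 11.23, 11.21 and 11.22 in Ebf1-H240A. The groups did not overlap, and Empty was highest. The difference was -0.72 ± 0.08 with Ebf1wt (adjusted p = 6.16e-04) and -0.95 ± 0.08 with Ebf1-H240A (adjusted p = 1.52e-04). The further difference of -0.23 ± 0.07 between mutant and wild type did not pass (adjusted p = 0.113, 95% interval -0.40 to -0.06). Both differences from Empty passed in all 5 fits that left out an array, of which 2 leave a single Empty array and take the spread from the EBF1 groups alone, as for every gene below. Within slides they ranged from -0.71 to -0.75 with Ebf1wt and were -0.95 and -0.95 with Ebf1-H240A. The single Cdk4 probe lies at chr10:126501967-126502026 of mm9. Markers of other cell types changed in both directions between Empty and the EBF1 groups. Of 4 tested of 8 erythroid markers, 1 was higher and 2 were lower in each comparison with Empty: Alas2, a heme synthesis enzyme, differed by 6.95 and 6.06, and the globin gene Hbb-bt by -3.13 and -3.58. Alas2 was well above background on 6 arrays, all of them EBF1 arrays, and so passed the filter only through the groups where it was high. The summed intensity of the erythroid markers was 8282 to 9223 units in Empty, 1200 to 1335 in Ebf1wt and 834 to 922 in Ebf1-H240A, and Hbb-bt alone gave 78.3% to 99.7% of it. Of 3 tested of 6 mast cell and megakaryocyte markers, 2 were lower in each comparison and 1, Gp1bb, was higher with Ebf1-H240A (0.73). Ahsg, the 1 tested of 8 hepatocyte markers, was lower in both. The shares over all genes tested were 17.2% higher and 21.2% lower with Ebf1wt, and 21.6% and 23% with Ebf1-H240A. These marker genes were named after their values were seen, and their part in the lower Cdk4, Ccne1 and Ccne2 values was not tested.

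Cdk6, the other kinase partner, changed little. On the log2 scale Cdk6 stood at 12.70 and 12.59 in Empty, 12.44, 12.43 and 12.39 in Ebf1wt, and 12.44, 12.47 and 12.43 in Ebf1-H240A. Both Empty arrays lay above the EBF1 arrays, which overlapped between groups. The differences of -0.22 ± 0.06 (adjusted p = 0.0235) and -0.19 ± 0.06 (adjusted p = 0.0338) passed, but they passed in only 6 and 4 of 17 other settings, where the adjusted p reached 0.464 and 0.543. They were lost, for example, without Empty replicate 1 (-0.17, adjusted p = 0.134, and -0.14, adjusted p = 0.180) and when the gene's probes were averaged (-0.18, adjusted p = 0.0560). The 2 other Cdk6 probes did not pass, at -0.17 and -0.15 in the wild-type comparison, and at -0.27 and -0.09 in that of the mutant. One of these carries an annotated interval of chr5:3473220-3515504 in mm9, far longer than its 60 bases, as a probe across an exon junction would.

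Ccne1 encodes cyclin E1. The log2 intensities of Ccne1 were 11.35 and 11.40 in Empty, 10.70, 10.62 and 10.52 in Ebf1wt, and 10.52, 10.42 and 10.63 in Ebf1-H240A. Both Empty arrays were higher than all EBF1 arrays, and the EBF1 groups overlapped. The difference was -0.76 ± 0.09 with Ebf1wt (adjusted p = 6.91e-04) and -0.85 ± 0.09 with Ebf1-H240A (adjusted p = 3.40e-04), and it passed in all 5 fits without 1 array in each comparison. Between mutant and wild type it was -0.09, with a 95% interval of -0.27 to 0.09. The second Ccne1 probe gave -0.68 and -0.85. Both Ccne1 probes carry the same interval of chr7:38882937-38882960 in the array annotation although their sequences differ.

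Ccne2, which encodes cyclin E2, fell in both EBF1 groups, with wide spread in one of them. Log2 intensities were 6.86 and 6.73 in Empty, 6.14, 6.31 and 6.58 in Ebf1wt, and 5.99, 6.23 and 6.22 in Ebf1-H240A. The Empty arrays were highest, and the spread within Ebf1wt (SD 0.22) was the widest of the 10 genes in any group. The difference was -0.45 ± 0.14 with Ebf1wt (adjusted p = 0.0451) and -0.64 ± 0.14 with Ebf1-H240A (adjusted p = 0.0100). The Ebf1wt call was lost in 4 of the 5 fits without 1 array, with values from -0.35 to -0.57 and adjusted p up to 0.195. The Ebf1-H240A call was lost without Empty replicate 1 (adjusted p = 0.0654). Normexp background correction gave -0.23 and -0.26, neither of which passed (adjusted p = 0.201 and 0.128). The second Ccne2 probe gave -0.49 and -0.66.

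Among the inhibitors, Cdkn1a (p21) rose, and Cdkn1b (p27) and Cdkn2c (p18) did not rise at the threshold in either EBF1 group. The Cdkn1a log2 intensity was 11.25 and 11.27 in Empty, 12.27, 12.24 and 12.40 in Ebf1wt, and 12.05, 12.31 and 12.01 in Ebf1-H240A. All 6 EBF1 arrays were above both Empty arrays, and the EBF1 groups overlapped. Cdkn1a rose by 1.05 ± 0.10, or 2.07-fold, with Ebf1wt (adjusted p = 3.96e-04) and by 0.86 ± 0.10, or 1.82-fold, with Ebf1-H240A (adjusted p = 7.24e-04). It passed in all 5 fits without 1 array in each comparison. The mutant differed from the wild type by -0.18 ± 0.09 (adjusted p = 0.303, 95% interval -0.40 to 0.04). Its probe, at chr17:29237377-29237436 of mm9, was printed as 10 spots per array, with a spot SD of 0.03 to 0.09.

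Cdkn1b did not pass in any of the 3 comparisons. Log2 intensities of Cdkn1b were 10.04 and 9.94 in Empty, 9.93, 10.01 and 9.87 in Ebf1wt, and 10.27, 10.10 and 10.14 in Ebf1-H240A. The Ebf1-H240A arrays were the highest and did not overlap the others. The difference was -0.05 with Ebf1wt (95% interval -0.24 to 0.13), 0.18 with Ebf1-H240A (-0.01 to 0.37) and 0.24 between mutant and wild type (0.07 to 0.40, adjusted p = 0.106). The Cdkn1b probe with 10 spots gave differences of -0.005, 0.03 and 0.04 in the same order. The third probe gave -0.16, -0.01 and 0.15, and neither passed in any comparison.

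Cdkn2c fell in 1 of the EBF1 groups at the threshold. On the log2 scale Cdkn2c stood at 8.16 and 8.18 in Empty, 8.09, 8.03 and 7.98 in Ebf1wt, and 7.91, 7.66 and 7.89 in Ebf1-H240A. The groups did not overlap and stepped down from Empty to the mutant. The difference was -0.14 ± 0.09 with Ebf1wt (adjusted p = 0.273) and -0.35 ± 0.09 with Ebf1-H240A (adjusted p = 0.0182). Between mutant and wild type it was -0.21 ± 0.08 (adjusted p = 0.179). The Ebf1-H240A call passed in 10 of 17 other settings and in 3 of the 5 fits without 1 array, with adjusted p up to 0.0824 there. The second Cdkn2c probe, which shares 40 of its bases with the first, gave -0.11 and -0.26.

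Groups that did not overlap were found for 9 of the 10 genes with Ebf1wt against Empty, where 61.3% of all genes had them (26.5% higher and 34.8% lower). The count was 10 of 10 with Ebf1-H240A against Empty (65.5% of all genes, 31.5% higher and 34% lower) and 5 of 10 between mutant and wild type (29.9%, 16.9% higher and 12.9% lower). Those 5 were Ccnd1 and Cdkn1b, higher in the mutant, and Ccnd3, Cdk4 and Cdkn2c, lower.

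The other genes of the G1 to S pathway mostly fell. Of 27 tested, 5 rose and 14 fell with Ebf1wt and 3 rose and 14 fell with Ebf1-H240A, with medians of -0.28 and -0.39 log2 units. Over all genes, 17.2% rose and 21.2% fell with Ebf1wt, and 21.6% rose and 23% fell with Ebf1-H240A. The 2 genes with the smallest adjusted p in each comparison with Empty were Cdkn2b and E2f2, and both rose. Cdkn2b, the INK4 inhibitor p15, went from 6.78 and 6.60 in Empty to between 8.57 and 8.83 in Ebf1wt and between 8.40 and 8.51 in Ebf1-H240A, differences of 1.97 ± 0.10 and 1.75 ± 0.10. E2f2, an E2F factor, rose by 0.80 and 0.84, while E2f1, named after its values were seen, fell by 0.53 and 0.67. Between mutant and wild type, 1 of the 27 was called, where 6.37% of all genes were: Ccna2, cyclin A2, at -0.38 ± 0.07 (adjusted p = 0.0274). That call passed in 7 of 18 other settings and in 0 of the 6 fits without 1 array, where the adjusted p reached 0.0955 and the value stayed between -0.34 and -0.41. The next gene by adjusted p was Cdkn2a, the p19ARF and p16 locus, at -0.80 (adjusted p = 0.0762). Cdkn2a had log2 values from 1.46 to 2.93 and was well above background on 1 of 2 Empty, 3 of 3 Ebf1wt and 2 of 3 Ebf1-H240A arrays.

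Downstream of the cyclins, S phase genes known to be under E2F control fell in both EBF1 groups. Of 22 tested, 2 rose and 15 fell with Ebf1wt (median -0.46), where 17.2% of all genes rose and 21.2% fell. With Ebf1-H240A 0 rose and 19 fell (median -0.71), where 21.6% of all genes rose and 23% fell. In the latter limma comparison 20 of the 22 were at an unadjusted p under 0.05. In the alternative limma fit with each gene's probes averaged, 8425 of all 16323 genes were. Cdc6, which loads the replicative helicase, went from 9.03 and 8.95 in Empty to between 8.22 and 8.43 in Ebf1wt and between 8.03 and 8.10 in Ebf1-H240A. Mcm3, a subunit of that helicase, differed by -0.63 and -0.95. Between mutant and wild type 5 of 22 fell and 0 rose, where 2.73% of all genes fell and 3.64% rose. In limma 18 of the 22 were at an unadjusted p under 0.05, and with probes averaged 3738 of all 16323 genes were. Uhrf1, which maintains DNA methylation, led these at -0.60 ± 0.08 (adjusted p = 0.0111): it stood at 11.75 and 11.63 in Empty, between 11.999 and 12.24 in Ebf1wt and 11.45, 11.49 and 11.61 in Ebf1-H240A. Mcm5, another helicase subunit, was lower in the mutant by 0.41 on the log2 scale (difference -0.41, adjusted p = 0.0209). The Uhrf1 call passed in 15 of 18 other settings and in 6 of 6 fits without 1 array, and the Mcm5 call in 8 of 18 and 1 of 6, that without Ebf1-H240A replicate 3.

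Later cyclins and mitotic kinases fell with Ebf1wt in 8 of 15 and with Ebf1-H240A in 14 of 15, and 0 rose in either limma comparison. The shares of all genes that fell were 21.2% and 23%. At an unadjusted p under 0.05 were 9 and 14 of the 15. With each gene's probes averaged, 7779 and 8425 of all 16323 genes were at such a p in limma. Aurka, a mitotic spindle kinase, differed by -0.44 and -0.59, and Ccnf, cyclin F, by -0.52 and -0.64. Foxm1, a transcription factor of mitotic genes, differed by -0.46 and -0.80, and Cdk1, the mitotic cyclin-dependent kinase, by -0.54 and -0.91. None of the 15 passed between mutant and wild type in limma, and the median difference was -0.22. At an unadjusted p under 0.05 were 9 of them, and with probes averaged 3738 of all 16323 genes. The Ebf1wt count was 3 without Empty replicate 1 and 5 without Empty replicate 2.

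Cdkn1a is a known target of p53, and the other p53 targets were mixed. Of 15 tested, 4 rose and 4 fell with each form of EBF1, with medians of 0.08 and 0.02. Over all genes, 17.2% rose and 21.2% fell with Ebf1wt, and 21.6% rose and 23% fell with Ebf1-H240A. Gadd45a, a stress response gene, went from 6.25 and 6.30 in Empty to between 7.80 and 7.99 in Ebf1wt and between 8.01 and 8.29 in Ebf1-H240A, and Trp53inp1, a p53 cofactor, differed by 1.25 and 1.40. Phlda3, which inhibits AKT signalling, differed by 0.96 and 0.44 and was lower in the mutant than in the wild type (-0.52, adjusted p = 0.0166). Pmaip1, the cell death gene Noxa, differed by -0.44 and -0.74, and by -0.30 between mutant and wild type (adjusted p = 0.0370). The Phlda3 call for the EBF1 forms passed in 9 of 18 other settings and in 1 of 6 fits without 1 array, that without Ebf1-H240A replicate 2, and the Pmaip1 call in 4 of 18 and 0 of 6, with adjusted p up to 0.0649 and 0.126 in those fits. Blocking on slide gave Phlda3 an adjusted p of 0.0249 and Pmaip1 one of 0.0792. Mdm2, a p53 target named after its values were seen, differed by 0.08 and 0.12 (adjusted p = 0.503 and 0.279).

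Upstream regulators of the D cyclins and inhibitors changed in both directions. Of 17 tested, 6 rose and 5 fell with Ebf1wt, where 17.2% of all genes rose and 21.2% fell. With Ebf1-H240A 6 rose and 7 fell, where 21.6% of all genes rose and 23% fell. Mycn and Myc are MYC family factors, and both bind E-boxes. Mycn fell from 12.96 and 12.76 in Empty to 9.80, 9.89 and 10.07 in Ebf1wt and 9.89, 10.13 and 9.90 in Ebf1-H240A. These were differences of -2.94 ± 0.12 and -2.88 ± 0.12. Myc itself, named after its values were seen, rose by 0.84 ± 0.10 and 0.86 ± 0.10. The part of either factor in the Cdk4 values was not tested. Lef1, a factor of the WNT pathway, differed by -2.55 and -2.61. Il7r, the receptor chain for the IL-7 in the medium, differed by -1.09 and -1.45 and was lower in the mutant than in the wild type (-0.36, adjusted p = 0.0292). Ezh2, a histone methyltransferase known to silence INK4 genes, differed there by -0.38 (adjusted p = 0.0411). Each of these calls between mutant and wild type passed in 5 of 18 other settings, and neither passed when slide was blocked (0.0645 for Il7r and 0.0815 for Ezh2, both adjusted p). Leaving out 1 array kept the Il7r call in 1 of 6 fits, that without Ebf1-H240A replicate 2, and the Ezh2 call in 0 of 6, with adjusted p up to 0.102 and 0.136 and the same sign in all. These list counts stand against the same 38.4%, 44.6% and 6.37% of all genes.

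**Figure D4:**
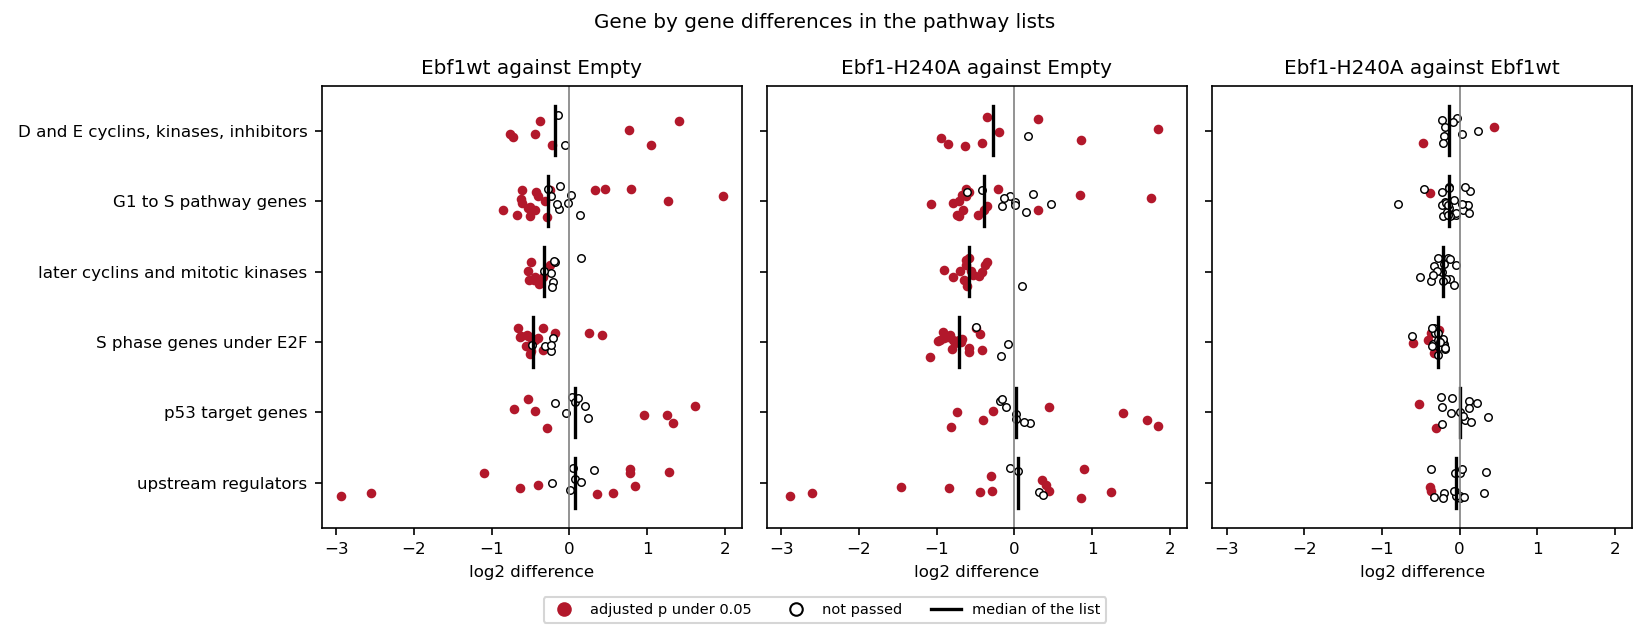
Log2 difference (x axis) of each tested gene in the 10 cyclin, kinase and inhibitor genes and in the 5 pathway lists, in the 3 comparisons, with filled points at an adjusted p under 0.05 and a bar at the median. The S phase genes and the later cyclins lie mostly below 0, with medians of -0.46 and -0.33 for Ebf1wt and -0.71 and -0.59 for Ebf1-H240A.

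The genes most like each of 4 members were found by the root mean square difference of log2 values, centred on each gene's mean, over the 8 arrays. For Ccnd1 these were Gchfr (0.0783), Plxnd1 (0.0884) and Tha1 (0.0955), where the root mean square of Ccnd1 itself was 0.735. For Ccnd3, with 0.312, they were Glt8d1 (0.0577), Wfdc21 (0.0613) and Serpina3f (0.0742). Ccnd2 was most like Spcs3, Cct8 and Smox, and Cdkn2c most like Kmo, Tnfsf11 and Ptma, but these 2 members varied little, with 0.181 and 0.161. The arrays that give the likeness are the same for all genes, so it is a description with no test.

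**Figure D5:**
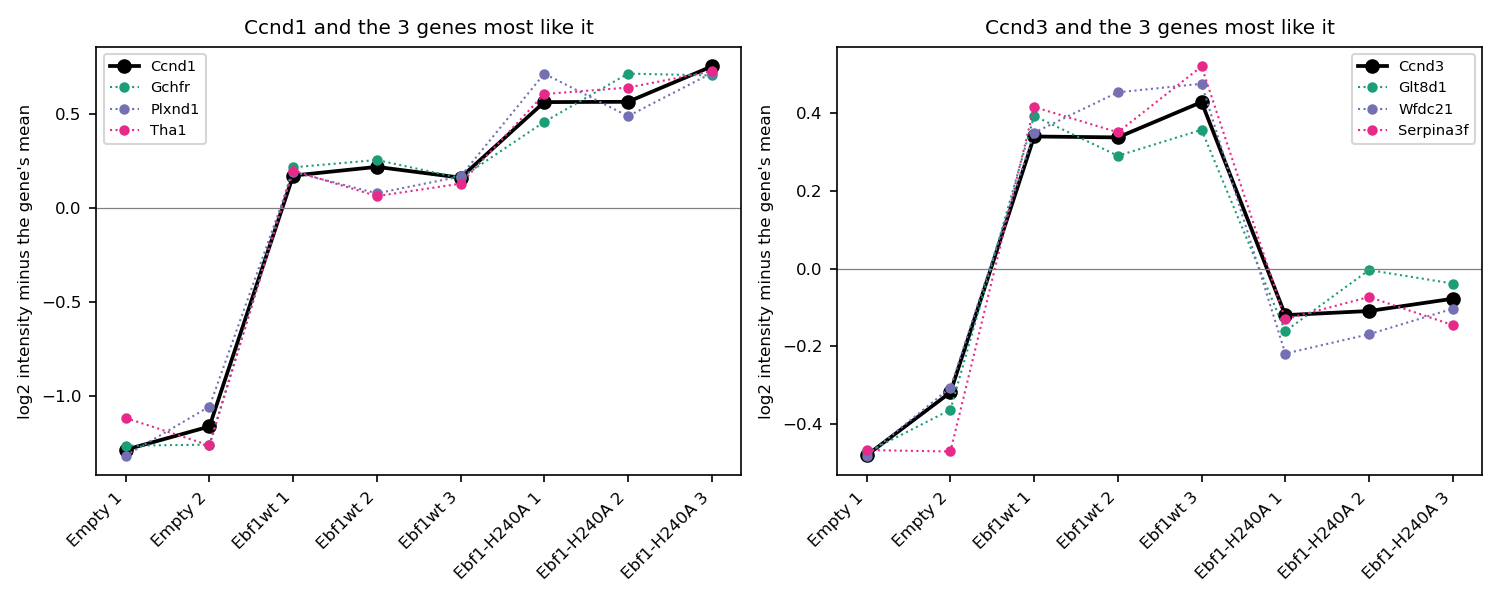
Log2 intensity minus the gene's own mean (y axis) on each of the 8 arrays for Ccnd1 and Ccnd3, each with the 3 genes most like it. Lines only guide the eye; Ccnd1 and its neighbours are highest in Ebf1-H240A, and Ccnd3 and its neighbours are highest in Ebf1wt.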

How the data were processed

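RNA of 8 samples was hybridised to one-colour Agilent arrays, and the submitters' processing notes name Agilent Feature Extraction 10.5.1.1. The deposited processed signal is a linear intensity after spatial and multiplicative detrending, per the file headers. Probe positions in those files are of mm9. The authors' value table holds log2 values of the same arrays; its normalization and centring are stated neither in the labels nor in the headers. Column medians were 4.90 to 4.93, and columns correlated with the scanner log2 values at r = 0.972 to 0.979, so it runs in the same direction, and it served only as an alternative.

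Intensities were scaled to a common 75th percentile, set to at least 1 and put on log2. Outlier spots were dropped and spots of a probe averaged. Probes well above background on at least 2 of 8 arrays were kept (25025), and the brightest kept probe stood for each gene. Of those kept, 24 lacked a value on at least 1 array and were left out. Groups were compared with limma 3.58.1 in R 4.3.3 over all 8 arrays without covariates (5 residual and 1.80 prior degrees of freedom), adjusted by Benjamini-Hochberg over 16323 genes, and the procedure was tested on simulated data. Probes were adjusted over all kept probes.

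The members, the gene lists and the tests were chosen with earlier results of these data known. Named genes were all 10 members, the 2 genes with the smallest adjusted p per list and comparison, and the 3 genes most like Ccnd1, Ccnd2, Ccnd3 and Cdkn2c; others are marked as named after their values were seen. Groups and replicate numbers come from the labels, which name no separate cultures or animals. The p-values therefore reflect only how far these samples scatter, and that scatter may be technical. The number of arrays limits the precision. Probe positions are those of the array annotation; exon and UTR annotation of mm9 was not used here. Alternatives were normexp background correction (offset 50), scaling to the median, quantile normalization, the deposited log2 table, no filter or a filter on all 8 arrays, the mean over probes, a replicate block, the slide as a block and within slides, only the groups compared, and leaving out each array.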

Additional observations from a re-analysis of the deposited data

How the results depend on the processing

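No member called against Empty changed sign in any of the 17 alternatives, and neither did Ccnd1 or Ccnd3 between mutant and wild type in 18. Values that changed sign were none of them called: with Ebf1wt against Empty, Cdkn1b was 0.0444 with normexp and 0.0567 with the deposited value table, where Cdkn2c was 0.0141; between mutant and wild type, Cdk6 was -0.0121 with median scaling and -1.46e-04 with the mean over probes, Ccne1 was 0.0221 within slide 2, and Ccnd2 ranged from -0.0773 to 6.39e-04 when 1 array was left out. The causes were not tested.

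Scaling to the median changed the split of all called genes from 2803 higher and 3465 lower to 2220 and 4936 with Ebf1wt, and from 3519 and 3757 to 2562 and 5483 with Ebf1-H240A, where the median over all genes was -0.13 and -0.14. The replicate number as a block called 4810, 5925 and 360 genes, against 6268, 7276 and 1039 without it. Deviations of same-numbered arrays from their group means correlated between -0.33 and 0.19. With only 2 or 3 arrays in a group, such deviations are tied to each other by the group mean. They therefore cannot decide whether the replicate numbers pair arrays across groups. With the replicate block, later cyclins called with Ebf1wt went from 8 to 5. Between mutant and wild type, members went from 2 to 1, and G1 to S, S phase, p53 and upstream genes to 0 each. Of these 4 lists, 5, 17, 4 and 5 genes were at an unadjusted p under 0.05 in that limma fit, as were 3323 of all 16323 genes.

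With Ebf1-H240A against Empty, 5 members were called with normexp and 5 with the deposited value table, and the latter called 4 later cyclins with Ebf1wt. Fits within slides have 1 residual degree of freedom. With Ebf1wt, slide 1 called 0 members, 0 G1 to S, 0 later cyclin, 0 S phase, 0 p53 and 1 upstream gene, and slide 2 called 0, 1, 0, 0, 0 and 2. With Ebf1-H240A against Empty, slide 1 called 2, 1, 0, 2, 3 and 4, and slide 2 called 0, 0, 0, 0, 0 and 1. Between mutant and wild type both slides called 0 in the members and all 5 lists. Unadjusted, members under 0.05 within slides 1 and 2 numbered 5 and 5 with Ebf1wt, 7 and 4 with Ebf1-H240A, and 2 and 2 between mutant and wild type.

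Between mutant and wild type, where the members, G1 to S, later cyclin, S phase, p53 and upstream counts were 2, 1, 0, 5, 2 and 2, normexp called 1 later cyclin, 1 p53 and 1 upstream gene. Median scaling called 2 later cyclins and 12 S phase genes, quantile normalization 10 S phase genes, and probes above background on all 8 arrays 1 later cyclin and 10 S phase genes. The deposited value table called 0 G1 to S, 3 S phase, 1 p53 and 0 upstream genes. No filter, which tests 27324 genes, called 1 member, 0 G1 to S, 1 S phase, 0 p53 and 0 upstream genes. The mean over probes called 1 upstream gene. The slide as a block called 2 S phase, 1 p53 and 0 upstream genes, and only the groups compared 3, 1 and 1.

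Leaving out 1 array gave 5 to 7 members with Ebf1wt, 5 to 8 with Ebf1-H240A (5 without Empty replicate 1 in both) and 1 to 2 between them. With Ebf1wt it gave 3 to 8 later cyclins and 11 to 14 S phase genes, and with Ebf1-H240A 5 to 7 p53 genes. Between the forms it gave 0 to 1 G1 to S, 0 to 1 later cyclin, 1 to 5 S phase, 0 to 1 p53 and 0 to 1 upstream genes.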
